A study of Homo sapiens with 6 samples.

Results

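HER2, the product of ERBB2, has no known ligand of its own and signals by pairing with the other ERBB receptors. The genes described here were 10: the partner receptors EGFR, ERBB3 and ERBB4, the ligands AREG, EREG, TGFA, HBEGF, BTC and NRG1, and ERRFI1, which encodes a cytoplasmic inhibitor that binds the EGFR and HER2 kinase domains. They were chosen by gene symbol from a gene table of 54644 rows and occupied 11 of those rows. Reads were found for 9 of the 10, and 7 passed the filter on low counts. The libraries came from SKBR3, an established human breast adenocarcinoma cell line with an amplified ERBB2 gene. In the CTTN group (3 libraries) the cells carried a pLVX lentivirus with the cDNA of CTTN, the gene for the actin-binding protein cortactin, and in the control group (3 libraries) they carried the pLVX vector. Both lines were made by lentiviral infection and puromycin selection. Whether each was a pool or 1 clone is not given in the sources used here, and neither is whether the libraries came from separate cultures, so the p-values measure the spread between these libraries, which may be technical. The extraction note in the labels also uses the word tumors, while the methods describe cultured cells.

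Ligands of this family are made as membrane-anchored precursors and are released by proteases. AREG, TGFA and EGF bind EGFR, HBEGF, BTC and EREG bind EGFR and ERBB4, and neuregulins bind ERBB3 and ERBB4. Ligand binding opens the receptor and lets it pair with another, and HER2 is the favoured partner. ERBB3 has little kinase activity but carries many docking sites for phosphoinositide 3-kinase, so the pair of HER2 and ERBB3 is known as a strong growth signal in HER2-positive breast cancer cells.

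Of the ligand genes, 3 members and EPGN, which encodes a further EGFR ligand, lie side by side on chromosome 4. In the order of the GRCh38.p14 assembly (RefSeq) these are EPGN (74308470 to 74316789), EREG (74365145 to 74388749), AREG (74445136 to 74455005) and BTC (74744759 to 74794523), a stretch of 486 kb. The 250 bases before the annotated start of each are shown because EPGN and BTC had lower values in every CTTN library than in any control, AREG did not, and EREG was close to the limit of detection. EGFR, on chromosome 7, is shown beside them as the member with the most reads in a gene table row of its own. RefSeq promoter entries were found for 8 of the 9 members looked up (NRG1 was not looked up), and that for EGFR at its upstream start is printed. Each sequence reads 5′ to 3′ on the gene's own strand, from GRCh38.p14. Capitals mark 4 motifs, each searched on both strands with overlapping matches kept. The motif TATAAA positions transcription in many promoters. The motif GGGCGG is the core of the site of SP1 factors. The motif TGACGT is the core of a cyclic AMP response element. The motif TGANTCA is the site of AP-1 factors.
EPGN promoter, chr4:74308220-74308469, plus strand: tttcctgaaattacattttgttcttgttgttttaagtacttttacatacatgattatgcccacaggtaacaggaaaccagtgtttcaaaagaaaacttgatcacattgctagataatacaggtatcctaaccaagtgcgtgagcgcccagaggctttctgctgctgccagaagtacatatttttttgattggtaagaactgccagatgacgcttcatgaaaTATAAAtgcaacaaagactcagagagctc
EREG promoter, chr4:74364895-74365144, plus strand: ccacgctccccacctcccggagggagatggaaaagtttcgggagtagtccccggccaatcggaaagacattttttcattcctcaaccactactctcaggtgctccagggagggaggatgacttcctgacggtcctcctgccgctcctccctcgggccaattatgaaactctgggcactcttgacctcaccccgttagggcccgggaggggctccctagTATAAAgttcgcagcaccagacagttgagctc
AREG promoter, chr4:74444886-74445135, plus strand: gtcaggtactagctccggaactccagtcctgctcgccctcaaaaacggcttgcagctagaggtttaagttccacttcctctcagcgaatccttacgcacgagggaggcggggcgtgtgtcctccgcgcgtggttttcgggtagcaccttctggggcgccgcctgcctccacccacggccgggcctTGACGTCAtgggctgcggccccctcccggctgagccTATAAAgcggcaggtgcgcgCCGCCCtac
BTC promoter, chr4:74794524-74794773, minus strand: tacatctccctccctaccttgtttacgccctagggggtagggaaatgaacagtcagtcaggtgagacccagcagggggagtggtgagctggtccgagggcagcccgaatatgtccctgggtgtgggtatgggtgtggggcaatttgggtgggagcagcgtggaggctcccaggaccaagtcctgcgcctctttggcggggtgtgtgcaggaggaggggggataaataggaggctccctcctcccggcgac
EGFR promoter, chr7:55018767-55019016, plus strand: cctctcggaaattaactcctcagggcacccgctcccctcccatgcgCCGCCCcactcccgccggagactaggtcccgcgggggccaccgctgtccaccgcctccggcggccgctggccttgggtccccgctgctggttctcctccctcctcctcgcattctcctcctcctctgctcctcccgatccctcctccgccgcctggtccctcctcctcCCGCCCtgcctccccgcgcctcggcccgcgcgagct
TATAAA was present before EPGN, EREG and AREG, its nearest copy beginning 29, 32 and 29 bases before the start, and was in 10.7% of the 35116 promoter windows of the same length. TGACGT occurred in AREG alone of the 5 windows, where 2 overlapping matches on opposite strands form a palindrome, and in 7.10% of all windows. GGGCGG was present before AREG and EGFR and in 42.6% of all windows. The BTC window held none of the 4 motifs, and TGANTCA, found in 6.57% of all windows, was in none of the 5. The G and C share was 38.0% for EPGN, 58.0% for EREG, 65.2% for AREG, 62.0% for BTC and 73.6% for EGFR, against a median of 58.0%. A second EGFR entry of the table, at chr7:55109589-55109838 and not printed, had a G and C share of 38.8% and held 2 matches each of TATAAA and TGANTCA. Which start-site group it belongs to was not examined. A match is a description of the letters and not evidence of binding.

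Each library held 34887069 to 41279816 reads on named genes. As a check of the labels, CTTN stood at 792, 1011 and 519.7 normalised CPM (read counts scaled by the size of the library) in CTTN 1 to 3 and at 298.9, 306.4 and 306.2 CPM in control 1 to 3. It was 2.55-fold higher in the CTTN group (log2 fold change 1.35, SE 0.22, adjusted p = 0.0248 by edgeR's quasi-likelihood test, with Benjamini-Hochberg adjustment over all genes tested). The call was lost without CTTN 1 (adjusted p = 0.121) and without control 1, 2 or 3 (adjusted p = 0.136, 0.154 and 0.141), with log2 fold changes from 1.33 to 1.35. This test is used throughout, and a gene is called where its adjusted p is below 0.05. The control libraries are numbered here in the order of the deposited table. Of the SKBR3 markers, ERBB2, GRB7, KRT8, KRT18, KRT19 and EPCAM summed to 16263 to 19113 CPM in the CTTN and 16245 to 16867 CPM in the control libraries, and PGR had at most 1 read, while ESR1 shared its row with another gene. Of the 4 fibroblast markers, COL1A2, DCN and LUM had 0 to 3 reads, and their sum with COL1A1 was 12.7 to 15.2 CPM in CTTN and 15.2 to 16.5 CPM in control libraries. Of the 3 immune markers, PTPRC had 3 to 12 reads and CD3E 0 to 3, and CD68 shared its row with other genes. Of the 3 endothelial markers, CDH5 was lower in the CTTN group (log2 fold change -1.49, adjusted p = 0.00843, edgeR), VWF was not called, PECAM1 had 1 to 6 reads, and their sum was 5.15 to 8.19 CPM against 16.4 to 18.4 CPM. The part of these markers in the results below was not tested.

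CTTN 1 and CTTN 3 stood apart from the other 4 libraries, and the difference followed transcript length. The mean transcript length per read was 2.94, 3.38 and 2.56 kb in CTTN 1 to 3 and 3.28, 3.37 and 3.41 kb in control 1 to 3. On a smoothed curve over all 14409 genes tested, transcripts of 10 kb stood on the log2 scale at -0.51 in CTTN 1, 0.01 in CTTN 2 and -0.97 in CTTN 3 relative to the control mean, and transcripts of 1 kb at 0.28, 0.04 and 0.56. The 3 control curves stayed between -0.07 and 0.05 at these lengths. CTTN 2 therefore followed the controls in this measure, while long transcripts were low and short ones high in CTTN 1 and CTTN 3. Each member tested is given below beside the value of this curve at its own length. It is also given with the curve used as an offset in the fit (length offset), and without CTTN 1 and 3, which leaves CTTN 2 alone against the 3 controls and assumes that it varies as they do. Both alternatives were added after the data were seen, as was the length offset without CTTN 3.

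None of the 7 members tested was called, against 643 of 14409 genes (4.46%) over the whole table, 350 of them higher (2.43%) and 293 lower (2.03%) in CTTN cells. The number of genes called was 32, 6925 and 1252 without CTTN 1, 2 or 3, and 29, 15 and 16 without control 1, 2 or 3. At an unadjusted p below 0.05, 2 members passed (ERBB4 and BTC, both lower), where 30.2% of all genes did. DESeq2 called 1 of the 6 members to which it gave an adjusted p (ERBB4), where 13.5% of the 13813 genes with an adjusted p were called, and limma on FPKM called 0 at either pseudocount, 0.1 or 1, where it called 1.25% and 1.28% of all genes. The CPM of the groups did not overlap for 3 of the 7, ERBB4, BTC and the row holding ERBB3, all lower in CTTN cells, and 19.4% of all genes were lower without overlap. The median log2 fold change of all genes tested was 0.01. In bulk RNA, fewer cells that express a gene and less of its RNA per cell cannot be told apart.

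The levels of the members spanned over 3 orders of magnitude when compared per transcript length, as FPKM (fragments scaled to transcript length and library size). ERBB2 itself had 1675 ± 30.9 FPKM (SD, n = 3) in the controls and 1739 ± 82.2 FPKM in CTTN cells. ERBB3, as the sum of its transcript models because its gene row is shared, followed at 56.9 ± 1.71 FPKM in the controls. Its full-length model alone had 24.9, 26.8 and 32.2 FPKM in control 1 to 3, which overlapped with ERRFI1. From their gene rows, ERRFI1 had 26.7 ± 0.504 FPKM, EGFR 17.1 ± 1.49 FPKM, HBEGF 1.24 ± 0.0164 FPKM and BTC 0.988 ± 0.0386 FPKM. ERBB4 had 0.539 ± 0.349 FPKM and AREG 0.265 ± 0.0162 FPKM, and these neighbours overlapped. Of the ERBB4 value, 0.583, 0.693 and 0.0661 FPKM in control 1 to 3 came from a 569-nucleotide model with 8, 11 and 1 reads. The place of ERBB4 in this order therefore rested on few reads. EREG and TGFA were both near 0.025 FPKM and also overlapped, and NRG1 was listed at 0 throughout. All other neighbours in this order were separate in the control libraries. The same order was found in the CTTN group down to BTC, and there too ERBB4 overlapped with AREG and EREG with TGFA.

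**Figure D1:**
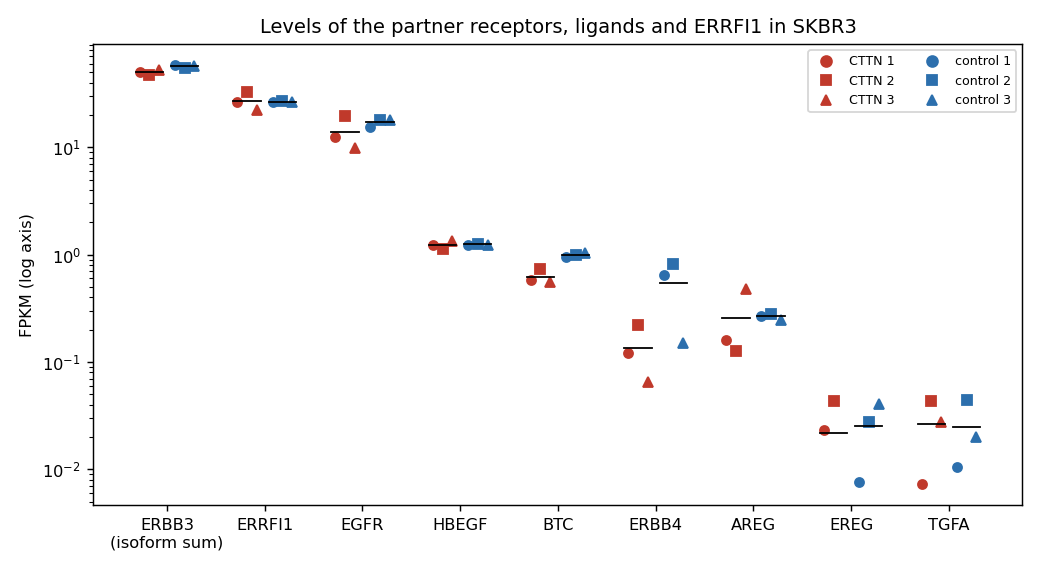
Each point is the FPKM (log axis) of a member in a library, in red for CTTN and blue for control, and black lines are group means of 3 libraries. Values of 0, which are EREG in CTTN 3 and NRG1 in all libraries, are not drawn. ERBB3 (the sum of its transcript models), ERRFI1 and EGFR lie at or above 9.85 FPKM in every library and all other members below 1.5 FPKM.

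EGFR encodes the founding receptor of the family. It had 113, 174 and 87.3 CPM in CTTN 1 to 3 and 150, 161 and 164 CPM in control 1 to 3. CTTN 2 was above and CTTN 1 and 3 were below all controls, so the groups overlapped, and the SD was 44.5 CPM in the CTTN group against 7.42 CPM in the controls. On the log2 scale the difference was -0.34 (95% interval -0.88 to 0.20, adjusted p = 0.317 by edgeR). EGFR's leading transcript has 9821 nucleotides. Its log2 deviations from the control mean of -0.51, 0.16 and -0.98 stood beside curve values of -0.51, 0.0048 and -0.96 for transcripts of this length in the same libraries. With the length offset the log2 fold change was 0.089 (SE 0.055, adjusted p = 0.282), and without CTTN 1 and 3 it was 0.14 (adjusted p = 0.179). Without CTTN 2 it was -0.66 and past the threshold (adjusted p = 0.00311), in a fit that called 47.1% of all genes. Over the 18 alternatives run without a replicate block the adjusted p ranged from 0.00311 to 0.586 and the sign was negative in 15. The direction for EGFR thus depended on the length offset and on the use of CTTN 1 and 3. Its log2 fold change stayed negative with any 1 library left out, from -0.66 to -0.14.

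EGFR reads fell almost entirely into 2 start-site groups, the sets of transcript models that share a first exon start. The estimates for the group led by ENST00000275493, the full-length 9821-nucleotide model, were 1518, 4945 and 300 reads in CTTN 1 to 3 and 3490, 4146 and 4410 reads in control 1 to 3. For the group of ENST00000638463 (9026 nucleotides) they were 2480, 1576 and 2575 reads against 1805, 2586 and 1868 reads. The first group thus held 37.9%, 75.6% and 10.4% of EGFR reads in CTTN 1 to 3 and 65.9%, 61.5% and 70.1% in the controls. It was low in CTTN 1 and 3 and highest in CTTN 2. Neither group was called (log2 fold changes -0.75 with SE 0.86, adjusted p = 0.699, and 0.24 with SE 0.25, adjusted p = 0.675, edgeR), and both changed sign without CTTN 1 and 3 (0.35 and -0.35). With 1 library left out, the log2 fold changes ranged from -2.01 to -0.25 for the first group and from 0.057 to 0.46 for the second. Of 35799 start-site groups tested over all genes, edgeR and limma each called 0 (0.0% of them), with 3732 and 3994 at an unadjusted p below 0.05.

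ERBB3, the kinase-poor partner of HER2, lies at 56080108 to 56103505 on chromosome 12, and PA2G4, which encodes an ERBB3-binding protein, follows at 56104559. The deposited gene table joins both, with a further gene model, in 1 row. That row had 711, 700.4 and 715 CPM in CTTN 1 to 3 and 757, 776 and 789 CPM in control 1 to 3. It was lower without overlap, by a log2 fold change of -0.13 (SE 0.07, adjusted p = 0.249, edgeR). Of 18 alternatives, 1 passed the threshold, the length offset without CTTN 3 (-0.16, adjusted p = 0.0320, in a fit that called 19.7% of genes). The offset took the length of this row as 2577 nucleotides, that of the leading PA2G4 transcript and not of ERBB3. With all libraries the curve values there were 0.03, 0.02 and -0.04 in CTTN 1 to 3. A second row named ERBB3 had 0 reads throughout. The transcript models named ERBB3 were therefore summed, a step added after the data were seen.

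The ERBB3 sums were 197, 230.4 and 169 CPM in CTTN 1 to 3 against 264, 266 and 275 CPM in control 1 to 3. All 3 CTTN libraries were below all controls, as were 18.9% of the 15542 symbols tested in this way. Their log2 fold change was -0.43 (95% interval -0.71 to -0.15, adjusted p = 0.0942, edgeR), which did not pass the threshold, where 3.02% of symbols did. Summed ERBB3 FPKM was 50.5, 46.8 and 52.7 against 58.4, 55.0 and 57.2, also without overlap. PA2G4 had 514, 470.0 and 545 CPM against 493, 509.8 and 514 CPM, and its log2 fold change was 0.01 (SE 0.08). The leading ERBB3 transcript has 5919 nucleotides. The deviations of -0.48, -0.20 and -0.79 were each lower than the curve values at this length, -0.30, 0.01 and -0.67. The log2 fold change was -0.12 with the length offset (adjusted p = 0.255), -0.22 without CTTN 1 and 3 (adjusted p = 0.0400, in a fit calling 10.3% of symbols) and -0.56 without CTTN 2 (adjusted p = 0.00472, in a fit calling 44.1%). It was negative in all 8 alternatives, with adjusted p from 0.00472 to 0.307.

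Of 15 ERBB3 start-site groups, 3 held at least 10% of its FPKM. The group of the full-length model ENST00000267101 had 3569, 7149 and 1654 estimated reads in CTTN 1 to 3 and 6393, 7741 and 8530 reads in control 1 to 3. A group led by a 3112-nucleotide variant of ENST00000415288 had 2784, 885 and 3681 against 2219, 1785 and 1302 reads. The short ENST00000411731 group (1027 nucleotides) had 234, 167 and 238 against 210, 256 and 174 reads. The full-length group held 51.2%, 82.5% and 29.6% of ERBB3 reads in CTTN 1 to 3 and 68.5%, 69.4% and 80.8% in the controls. As for EGFR, CTTN 1 and 3 were the libraries with a low share of the full-length group and CTTN 2 was not. The log2 fold changes of the 3 groups were -0.77, 0.62 and 0.15 (SE 0.47, 0.57 and 0.27, adjusted p = 0.525, 0.632 and 0.813, edgeR). With 1 library left out they ranged from -1.38 to -0.42, from 0.14 to 1.03 and from 1.04e-04 to 0.32. The longest group stayed negative in all 8 alternatives, and without CTTN 1 and 3 its value was -0.03 and the other two were -0.97 and -0.30.

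ERBB4, a receptor with an active kinase that binds neuregulins, HBEGF, BTC and EREG, was close to the limit of detection. It had 8, 23 and 11 reads in CTTN 1 to 3 and 31, 53 and 31 reads in control 1 to 3. This corresponds to 0.226, 0.611 and 0.333 CPM against 0.876, 1.26 and 0.807 CPM, so that the groups did not overlap, and the CTTN mean was 39.7% of the control mean. ERBB4's log2 fold change was -1.32 (95% interval -2.21 to -0.42, adjusted p = 0.0912, edgeR). Its longest models have about 12 kb, and the deviations of -1.89, -0.60 and -1.50 were lower than the curve values of -0.59, 0.01 and -1.07. It was -0.85 with the length offset (adjusted p = 0.109) and -0.69 without CTTN 1 and 3 (adjusted p = 0.271). It was past the threshold with DESeq2 (adjusted p = 0.0382) and without CTTN 2 (log2 fold change -1.82, adjusted p = 0.00585). All 17 alternatives that kept the gene gave a negative value, from -1.82 to -0.41 (limma on log2(FPKM + 1), a scale that understates the change of low genes), with adjusted p from 0.00585 to 0.309. The estimates placed most ERBB4 reads on ENST00000402597 in the CTTN libraries (7.1, 15.2 and 9.5 reads, and 0 in every control). In the controls they were on ENST00000342788 (22.6, 0 and 28.4 reads) or ENST00000436443 (35.3 reads in control 2), and neither had reads in the CTTN libraries. The only group with at least 10% of ERBB4 FPKM was that of a 569-nucleotide model (ENST00000435846), with 8, 11 and 1 reads in the controls and 0 in each CTTN library. At these read numbers an assignment to models that share most of their sequence is uncertain, and none of these groups passed the filter.

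BTC encodes betacellulin, a ligand of EGFR and ERBB4. It had 1.38, 1.52 and 1.43 CPM in CTTN 1 to 3 (49, 57 and 47 reads) and 1.87, 2.26 and 2.21 CPM in control 1 to 3 (66, 95 and 85 reads). The groups did not overlap and the CTTN mean was 68.2% of the control mean. The log2 fold change was -0.55 (95% interval -0.92 to -0.18, adjusted p = 0.0889, edgeR), which did not pass the threshold. BTC differed from EGFR in that the 3 CTTN libraries were alike. Its deviations of -0.62, -0.44 and -0.67 stood against curve values of -0.0033, 0.01 and -0.11 at its 2816 nucleotides. The log2 fold change was -0.52 with the length offset and -0.49 without CTTN 1 and 3 (adjusted p = 0.0623 and 0.212). It was past the threshold only without CTTN 2 (-0.60, adjusted p = 0.0336), and it was -0.29 with limma on log2(FPKM + 1). All 18 alternatives were negative, with adjusted p from 0.0336 to 0.304.

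HBEGF encodes heparin-binding EGF-like growth factor, and among the ligand members it had the highest level. It had 2.88, 2.58 and 3.18 CPM in CTTN 1 to 3 and 2.85, 2.93 and 2.81 CPM in control 1 to 3 (97 to 123 reads in each library). The controls lay within the range of the CTTN libraries. The log2 fold change was 0.0057 with a 95% interval from -0.31 to 0.32 (adjusted p = 0.979, edgeR), and its sign changed among the alternatives. At its 2386 nucleotides the curve values were 0.06, 0.02 and 0.02, beside deviations of -0.02, -0.13 and 0.02. With the length offset the log2 fold change was -0.03 (adjusted p = 0.888), and without CTTN 1 and 3 it was -0.15 (adjusted p = 0.691).

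AREG encodes amphiregulin, a common autocrine ligand of mammary epithelium. It had 7, 6 and 21 reads in CTTN 1 to 3 and 12, 14 and 12 reads in control 1 to 3. CTTN 3 was the highest and CTTN 1 and 2 were the lowest libraries. The interval of the log2 fold change, -1.26 to 1.23, was wide (value -0.02, adjusted p = 0.984, edgeR). AREG's transcript has 1240 nucleotides, and its deviations of -0.63, -0.83 and 0.74 stood beside curve values of 0.25, 0.04 and 0.46. The log2 fold change was -0.29 with the length offset (adjusted p = 0.679), -1.03 without CTTN 1 and 3 (adjusted p = 0.399) and -1.01 with the offset and without CTTN 3 (adjusted p = 0.143). With only CTTN 3 left out it was -0.87.

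EREG, TGFA and NRG1 did not pass the filter, and no fold change is given. EREG, the gene of epiregulin, had 3, 5 and 0 reads in CTTN 1 to 3 and 1, 4 and 5 reads in control 1 to 3. TGFA, the gene of transforming growth factor alpha, had 1, 6 and 1 reads against 1, 7 and 2 reads. NRG1, which encodes neuregulin 1 and lies on chromosome 8 (31639245 to 32774046), had 0 reads in all 6 libraries over its 27 transcript models. A count of 0 allows up to 3 counts, or 0.0715 to 0.0909 normalised CPM depending on the library, for counting error only. These 3 ligand genes were thus at or near the limit of detection in both groups.

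ERRFI1, the receptor inhibitor, is itself known to be induced by EGFR signalling. It had 80.3, 91.8 and 71.0 CPM in CTTN 1 to 3 and 79.0, 81.5 and 77.0 CPM in control 1 to 3. CTTN 2 was the highest and CTTN 3 the lowest library. Its log2 fold change was 0.03 (95% interval -0.22 to 0.29, adjusted p = 0.838, edgeR). The deviations of -0.0099, 0.23 and -0.29 stood beside curve values of -0.04, 0.0080 and -0.19 at its 3104 nucleotides, and the value with the length offset was 0.10 (adjusted p = 0.297). Without CTTN 1 and 3 it was 0.21 and past the threshold (adjusted p = 0.0302, in a fit that called 14.9% of genes). Without CTTN 2 it was -0.07 (adjusted p = 0.509), and over 18 alternatives the adjusted p ranged from 0.0302 to 0.988. Of its reads, 97.6% to 100% in each library fell into 1 start-site group. A single start-site group likewise held 94.3% to 100% of HBEGF reads and 95.5% to 100% of BTC reads, and neither these nor the AREG group were called.

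The other genes of the pathway were taken from lists fixed for this work. Of 5 further EGF-family ligands, 3 were tested, and 1 of them, EPGN, the gene of epigen, fell in CTTN cells, where 2.03% of all genes did. It had 0.593, 0.851 and 0.637 CPM in CTTN 1 to 3 (21, 32 and 21 reads) and 2.29, 1.71 and 1.64 CPM in control 1 to 3 (81, 72 and 63 reads). The groups did not overlap, and EPGN was 2.69-fold lower (log2 fold change -1.43, SE 0.23, adjusted p = 0.0248, edgeR). Its short transcript of 1070 nucleotides belongs to lengths that stood high in CTTN 1 and 3, with curve values of 0.27, 0.04 and 0.53 beside its deviations of -1.59, -1.06 and -1.59. It was also past the threshold with the length offset (-1.69, adjusted p = 0.00685) and without CTTN 1 and 3 (-1.14, adjusted p = 0.00752). It missed the threshold without CTTN 1 or without any 1 of the controls (adjusted p = 0.134 without CTTN 1), and with limma, and all 18 alternatives were negative (adjusted p from 2.94e-04 to 0.134). EGF, named after its values were seen, had 24.8, 30.1 and 22.4 CPM against 38.1, 37.5 and 37.0 CPM, and its log2 fold change was -0.54 (SE 0.12, adjusted p = 0.0544, edgeR). It was -0.30 with the length offset (adjusted p = 0.0249) and -0.32 without CTTN 1 and 3 (adjusted p = 0.00467), in fits that called 13.9% and 14.9% of all genes. It was also past the threshold without CTTN 2 or CTTN 3 (adjusted p = 0.00166 and 0.0279, in fits calling 47.1% and 8.55%) and with DESeq2 (adjusted p = 0.00451, in a fit calling 13.5%). On the FPKM scale the groups overlapped (8.80, 7.93 and 10.1 FPKM in CTTN 1 to 3 against 10.7, 9.61 and 10.4 FPKM), and limma gave -0.20 and -0.18 (adjusted p = 0.306 and 0.316 at pseudocounts of 0.1 and 1). EGF passed in 7 of 18 alternatives. NRG2, the gene of a further neuregulin, had a log2 fold change of 0.10 (SE 0.20), and NRG3 and NRG4 had at most 8 reads.

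ERBB2 had 8053, 8458 and 7438 CPM in CTTN 1 to 3 and 7687, 7490.2 and 7989 CPM in control 1 to 3. The groups overlapped and the log2 fold change was 0.05 (95% interval -0.16 to 0.26, adjusted p = 0.718, edgeR). With the length offset, which called 13.9% of all genes, it was 0.27 and passed the threshold (adjusted p = 0.0465), as it did when CTTN 3 was also left out (0.19, adjusted p = 0.0148), and over 18 alternatives the adjusted p ranged from 0.0148 to 0.981.

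Among 14 genes of receptor brakes and turnover, 1 rose and 0 fell, where 2.43% and 2.03% of all genes did. The gene that rose was CBLC, an epithelial ubiquitin ligase of the CBL family, with 35.1, 32.8 and 45.4 CPM in CTTN 1 to 3 and 24.6, 22.3 and 25.6 CPM in control 1 to 3. The groups did not overlap, and CBLC was 1.56-fold higher (log2 fold change 0.65, SE 0.14, adjusted p = 0.0497, edgeR). The value was 0.46 with the length offset and 0.44 without CTTN 1 and 3 (adjusted p = 0.0145 and 1.10e-04). The call was lost without CTTN 1, without any 1 of the controls and in 4 other alternatives, and the adjusted p ranged up to 0.229 over 18 alternatives. The median log2 fold change of the list was -0.30, with 12 of 14 values negative, where 49.1% of all genes were negative. With the length offset the median was -0.05, with 8 of 14 negative. In that fit 1 gene rose and 1 fell, where 7.93% and 5.98% of all genes did. Without CTTN 1 and 3 the median was -0.0016, with 7 of 14 negative.

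None of 8 genes of ligand shedding and trafficking was called, where 4.46% of all genes were, among them ADAM10 and ADAM17, which encode the main ligand-releasing proteases (log2 fold changes -0.23 and -0.14, adjusted p = 0.233 and 0.344, edgeR). The lowest adjusted p in this list was 0.0750, for RHBDL2, a rhomboid protease gene (log2 fold change -0.65). None of 24 genes of receptor-proximal adaptors and enzymes was called either, their lowest adjusted p being 0.0806. Of these, 5 shared a row with other genes, SHC1, PLCG1, PIK3R2, PIK3R3 and NCK1. The medians of both lists were -0.09 and -0.17, with the length offset 0.17 and 0.02, and without CTTN 1 and 3 they were 0.02 and 0.04, so the sign of both medians depended on the treatment of CTTN 1 and 3. Of the 8 genes, 2 rose and 1 fell both with the length offset and without CTTN 1 and 3, in fits that called 13.9% and 14.9% of all genes. Of the 24 genes, 4 rose and 1 fell with the offset, and 2 rose and 0 fell without CTTN 1 and 3. Over all genes the median was 0.01, 0.04 and -0.0037 in the same 3 fits.

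**Figure D2:**
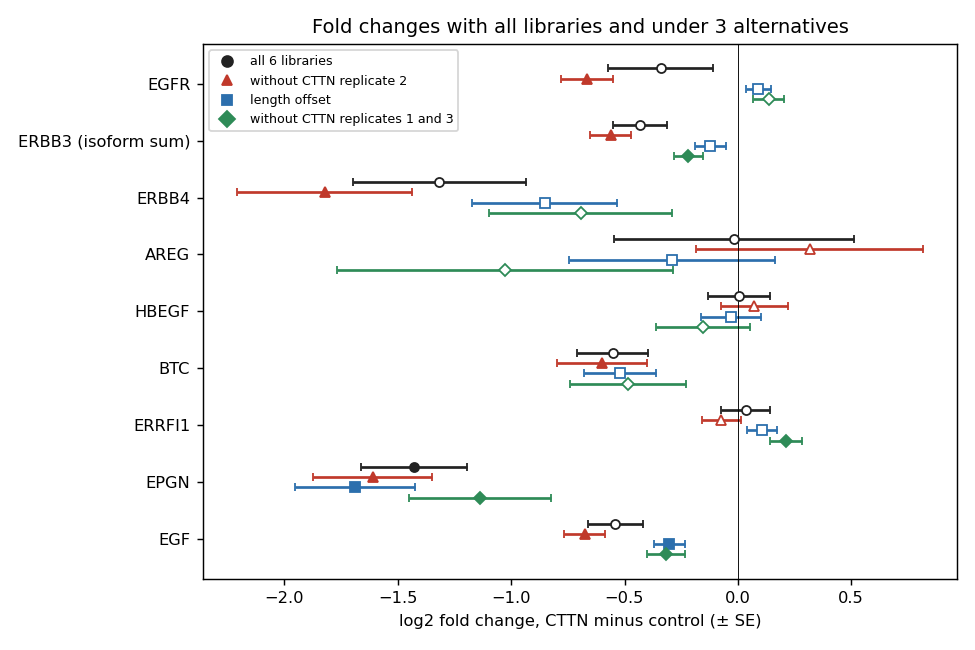
Points are log2 fold changes (CTTN minus control, x axis, ± SE) of members and of EPGN and EGF with all 6 libraries, without CTTN 2, with the length offset and without CTTN 1 and 3, and filled points have an adjusted p below 0.05. EGFR is at -0.34 with all libraries, -0.66 without CTTN 2 and 0.14 without CTTN 1 and 3, whereas BTC stays between -0.60 and -0.49 and EPGN is filled in all 4.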

How the data were processed

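RNA of the 6 libraries was sequenced as poly-A selected, stranded mRNA. The submitters' processing notes name bcl2fastq 2.20.0, Trimmomatic, STAR, Cufflinks and GRCh38, while the methods of the study name Cutadapt and hg19. The coordinates in the files are GRCh38. The deposited gene counts are a signal made by the authors: reads per gene divided by a scale for each library. Multiplied by that scale, 99.1% of values above 0 came within 0.05 of a whole number (all of those up to 1000), and these reads were tested. The deposited start-site and isoform tables hold estimated counts made by the authors with Cufflinks, which were rounded, and FPKM. No row lacked a name.

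edgeR 4.0.16 (TMM factors, filterByExpr with a minimum count of 10, quasi-likelihood F-test, Benjamini-Hochberg adjustment over all features tested) compared CTTN with control in R 4.3.3. SEs were derived from the F statistic, intervals are 95%. Normalised CPM uses TMM library sizes. Alternatives used other scaling factors and filters, DESeq2 1.42.0, limma 3.58.1 on log2(FPKM + 0.1) and log2(FPKM + 1), and each library left out. A length offset (lowess, span 0.3, on the length of the isoform with most estimated reads), that offset without CTTN 3, isoform sums per symbol and fits without CTTN 1 and 3 were chosen after seeing the data. The scripts were tested on simulated data.

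All 10 members were named, together with ERBB2, CTTN and each pathway-list gene called with at least a 1.5-fold change, or else the 2 called genes of a list with the largest change. Genes most like the called member with the lowest p were to be named, and no member was called. Members and lists were chosen with earlier results of these data known. The labels and the deposited table number the control columns differently, so control libraries are numbered by the deposited library names, also in a fit with the replicate number as a block. Intervals and limits cover counting error and library spread only.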

Additional observations from a re-analysis of the deposited data

How the results depend on the processing

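The labels and the deposited table name different columns for the 3 control libraries, and the numbers in the deposited library names were used for a replicate block. Same-numbered libraries did not deviate together from their group means (Pearson r over 14409 genes, which are not independent, 0.02, 0.08 and -0.19 for numbers 1, 2 and 3). Of the CTTN libraries CTTN 1 alone correlated best with its own number. Whether same-numbered libraries shared a culture or preparation cannot be told from these values, because the CTTN libraries also differed by transcript length. With the replicate block 105 genes were called (0.729%), 0 of the 7 members and 0 of 50 pathway-list genes, and no member changed direction (EPGN, CBLC and CTTN had adjusted p = 0.0845, 0.0828 and 0.0588 by edgeR). The number of genes called, 643, depended on the libraries: it was between 15 and 6925 with 1 library left out, 976 without the low-count filter, 1867 with DESeq2, 180 and 185 with limma on log2(FPKM + 0.1) and log2(FPKM + 1), 2004 with the length offset, 2881 with the length offset and without CTTN 3, and 2255 without CTTN 1 and 3. It stayed within 1.5 times in the other 5 alternatives. The members called were 0 in 14 of 18 alternatives, 1 with DESeq2 (ERBB4), 1 without CTTN 1 and 3 (ERRFI1), 1 with the length offset and without CTTN 3 (the row of ERBB3 and PA2G4) and, over the fits with 1 library left out, 0 to 3 of 7 (EGFR, ERBB4 and BTC without CTTN 2, where 47.1% of all genes were called). Of 50 pathway-list genes tested, 2 were called with all libraries (4.46% of all genes), 0 to 31 with 1 library left out (31 without CTTN 2, 47.1%), 10 of 49 with DESeq2 (13.5% of genes with an adjusted p), 13 with the length offset (13.9%), 15 with the length offset and without CTTN 3 (19.7%), 10 without CTTN 1 and 3 (14.9%), 0 with limma at either pseudocount, 1 of 48 with a minimum of 1 CPM in 3 libraries, 1 on counts as deposited, 3 without the low-count filter and 2 with each of the other scaling factors.

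With 1 library left out, log2 fold changes ranged from -0.66 to -0.14 for EGFR, -0.56 to -0.33 for the ERBB3 sums, -1.82 to -1.04 for ERBB4, -0.64 to -0.50 for BTC, -0.87 to 0.32 for AREG, -0.070 to 0.072 for HBEGF and -0.073 to 0.12 for ERRFI1. EGFR was 0.089 with the length offset, 0.082 with it and without CTTN 3, and 0.14 without CTTN 1 and 3. ERBB4 was -1.34 with DESeq2, and without CTTN 1 and 3 the ERBB3 sums were -0.22 and ERRFI1 0.21. AREG was 0.0022 with upper-quartile factors and 0.040 on counts as deposited. HBEGF was -0.043 with total counts, -0.0022 without the filter, -0.0089 with DESeq2, -0.013 and -0.0067 with limma at pseudocounts of 0.1 and 1, -0.031 with the length offset, -0.11 with it and without CTTN 3, and -0.15 without CTTN 1 and 3. ERRFI1 was -0.0056 with total counts. The row shared by ERBB3 and PA2G4 kept its direction in all 18 and its side of the threshold in 17, the exception being -0.16 with the length offset and without CTTN 3.

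Of start-site groups without CTTN 1 and 3, the longer and shorter EGFR groups were 0.35 and -0.35, the ERBB3 groups of 1027 and 3112 nucleotides -0.30 and -0.97, and AREG -0.91. With limma, AREG was -0.10 and ERRFI1 -0.0044. With 1 library left out, AREG ranged from -0.87 to 0.39, HBEGF from -0.092 to 0.046 and ERRFI1 from -0.064 to 0.11, and ERBB2 as a gene from -0.0029 to 0.10. The causes of these changes were not tested. A minimum of 1 CPM in 3 libraries removed AREG and ERBB4, and DESeq2 gave AREG no adjusted p. AREG, ERBB4, EREG, TGFA and NRG1 had at most 53 reads in any library, where counting error is a large share of the value.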
